A study of Mus musculus with 18 samples.

Results

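The genes of 10 antioxidant and glutathione enzymes, 10 of the 35655 genes in the count table and 10 of the 10312 genes tested, were followed in mouse carotid arteries before and after wire injury. They were chosen by symbol, with earlier results of these data known: *Gstm1*, *Gstm2*, *Gpx1*, *Gpx3*, *Gpx4*, *Sod1*, *Sod2*, *Sod3*, *Cat* and *Prdx6*. MACE libraries, which sequence the 3′ ends of transcripts, were made from RNA of vessel sections cut out by laser, with the neointima and the outer elastic lamina as landmarks of the cut. All 18 libraries carry the genotype label WT and the strain label C57/BL6. The animals were young adult males, and the left carotid was the one injured. Day 0, labelled as pre-injury, has 4 libraries. After injury, day 7 has 4 libraries, day 14 has 3, day 21 has 4 and day 28 has 3. Apart from the mice, the labels of these groups differ in time and in being before or after injury. Whether all days were processed together is not stated in the sources used here. The study calls the samples pooled without saying what was pooled, and the labels give 1 mouse number to each library. Of these mouse numbers, 3 occur on both day 0 and day 21. The right carotid served as control in the study, and whether the day 0 libraries came from such vessels is not stated. Levels are given as CPM, the counts of a gene scaled to a common library total, with TMM library sizes, a scale on which 3 counts correspond to 3.55 to 6.98 CPM depending on the library. Because MACE reads come from transcript ends, levels were compared between days, and the sums and shares given for *Gstm* genes and for *Gpx4* with its copy are shares of counted 3′ ends, not of transcripts per length.

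These enzymes dispose of reactive oxygen species and of the products they leave behind. Superoxide dismutases turn superoxide into hydrogen peroxide, which catalase, the glutathione peroxidases and the peroxiredoxins then remove. Glutathione transferases attach glutathione to reactive compounds. In the vessel wall, the extracellular dismutase protects nitric oxide from superoxide. Many genes of this system are known targets of the transcription factor NRF2, which binds antioxidant response elements.

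After injury, *Gstm1*, *Gstm2* and *Sod3* were lower on day 7, and *Prdx6* was higher. *Gstm1* was still lower on days 14 and 21. *Sod1* was lower on day 21 and *Gpx3* was higher on day 14. Each of these 2 calls was lost in 5 of the 18 fits that left out 1 library. By day 28 none of the 10 differed from day 0 at an adjusted p under 0.05 in edgeR's quasi-likelihood test, and 1 (*Gstm1*) had an unadjusted p under that value. No call was made for *Gpx1*, *Gpx4* or *Cat* on any day. Calls refer throughout to this edgeR test with Benjamini-Hochberg adjustment over the 10312 genes and a threshold of 0.05. On day 7, 4 of the 10 were called against 19.8% of all genes, 1 of them higher (11.3% of all genes) and 3 lower (8.53%). Day 14 had 2 calls against 6.22% of all genes, 1 higher (4.8%) and 1 lower (1.42%). Both calls of day 21 were lower, against 8.84% of all genes called and 2.93% called lower, with 0 higher against 5.92%. Day 28 had 0 calls against 1.34%. With 10 genes, 1 call moves these shares far, and since the genes were chosen with earlier results known, the shares are descriptive only. The median log2 fold change of the 10 was -0.13 at day 7, -0.37 at 14 days, -0.73 at 21 days and -0.22 at 28 days, while the median over all genes tested lay between -0.01 and 0.07.

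**Figure D1:**
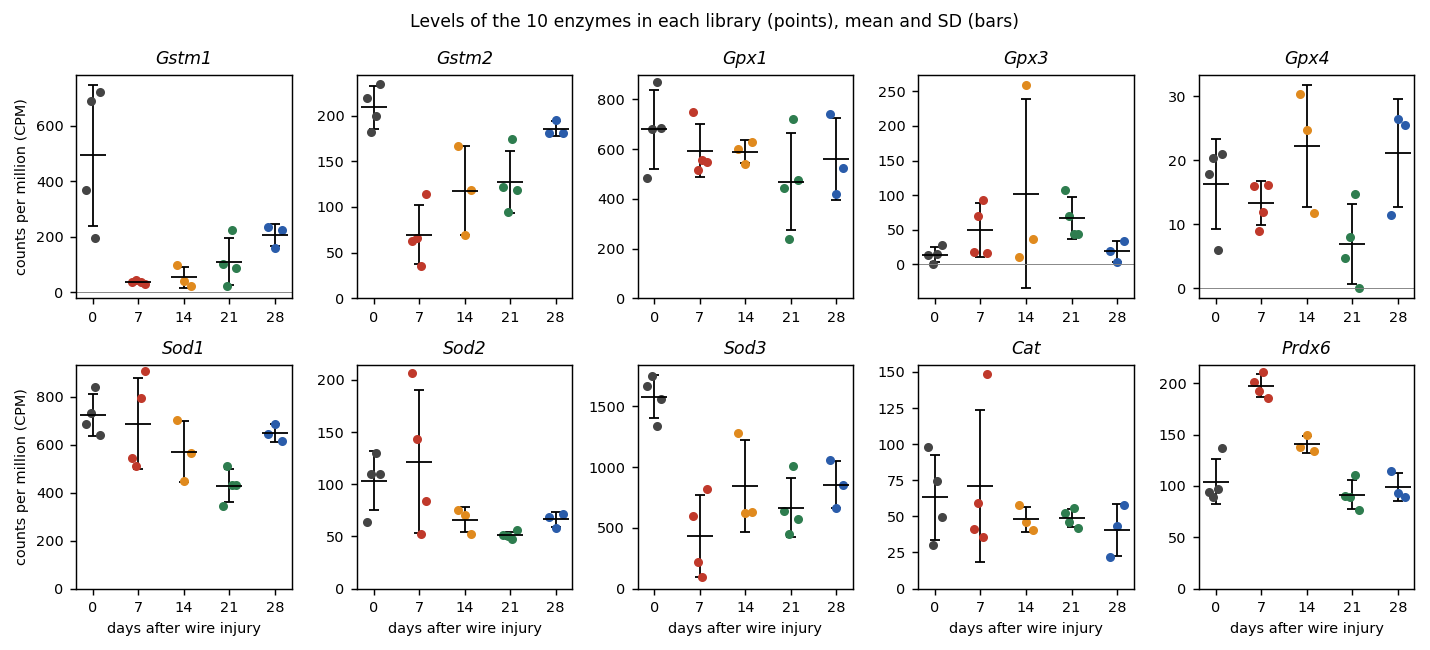
Level of each of the 10 enzymes in CPM (y axis, linear, a separate scale for each gene) against days after wire injury (x axis), with 1 point per library and bars for the mean and SD of 4, 4, 3, 4 and 3 libraries. *Gstm1*, *Gstm2* and *Sod3* lie below every day 0 library on day 7 and *Prdx6* above, while 1 library of day 14 carries the mean of *Gpx3*.

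The promoters of 3 genes are shown. *Gstm1* and *Gstm2* are the transferases among the 10 enzymes, and both were lower on day 7. *Sod1* is the 1 enzyme, among the 8 with a window, that holds the core of the antioxidant response element. The windows run from 250 bases before to 50 bases after a transcript start in RefSeq on GRCm38.p6, and 8 of the 10 genes matched this table. *Sod3* and *Prdx6* had no window and were not searched. The core was searched as TGACNNNGC and, for the other strand, GCNNNGTCA, and a match is printed in capitals.
Sod1, plus strand, chr16:90220512-90220811: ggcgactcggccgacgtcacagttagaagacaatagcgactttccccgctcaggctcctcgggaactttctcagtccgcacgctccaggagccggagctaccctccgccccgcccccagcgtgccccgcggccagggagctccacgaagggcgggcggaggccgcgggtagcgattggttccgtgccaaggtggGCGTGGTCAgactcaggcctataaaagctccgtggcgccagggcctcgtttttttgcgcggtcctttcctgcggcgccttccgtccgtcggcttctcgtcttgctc
Gstm1, minus strand, chr3:108017769-108018068: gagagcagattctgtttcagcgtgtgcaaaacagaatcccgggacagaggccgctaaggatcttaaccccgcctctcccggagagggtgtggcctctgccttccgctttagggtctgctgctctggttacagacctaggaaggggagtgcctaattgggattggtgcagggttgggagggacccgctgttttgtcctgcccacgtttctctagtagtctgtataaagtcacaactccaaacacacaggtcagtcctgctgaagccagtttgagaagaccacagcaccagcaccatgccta
Gstm2, minus strand, chr3:107986371-107986670: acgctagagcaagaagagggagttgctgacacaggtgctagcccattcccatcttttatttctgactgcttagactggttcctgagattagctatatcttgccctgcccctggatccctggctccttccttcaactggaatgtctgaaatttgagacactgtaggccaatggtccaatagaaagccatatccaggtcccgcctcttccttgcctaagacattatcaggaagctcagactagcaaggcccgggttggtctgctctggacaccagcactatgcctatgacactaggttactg
The match in *Sod1* begins 56 bases before the start. No window of *Gstm1* (2 windows) or *Gstm2* holds these letters. Of the 8 genes, 1 had a match (12.5%), against 14.0% of the 27025 genes in the table and 25 of the 121 genes (20.7%) of the related lists described further on. A match is a description of letters, and no match says nothing of other sites.

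*Gstm1* encodes a mu-class glutathione transferase. It lies on chromosome 3 at 107919380 to 107925380 (GRCm39, minus strand), next to its relatives. Its levels on day 0 were 368, 687, 197 and 720.4 CPM in replicates 1 to 4. On day 7 they were 37.4, 43.1, 37.9 and 30.7 CPM. These 4 libraries lay close together and far below the lowest day 0 library, whereas the day 0 libraries themselves were widely spread. On the log2 scale the change was -3.72 (SE 0.52, edgeR adjusted p = 1.09e-05), a 13.2-fold lower level. On day 14 the levels were 97.6, 40.6 and 23.5 CPM, all below day 0, with a log2 fold change of -3.20 (SE 0.56, edgeR adjusted p = 0.000674) that was -3.95 without replicate 1 of that day. Day 21 gave 103, 22.2, 225 and 88.4 CPM. Replicate 3 of that day reached into the range of day 0, at a level above the lowest uninjured library. The log2 fold change was -2.16 (SE 0.47, edgeR adjusted p = 0.00424), and -2.79 without this replicate 3. Day 28 gave 234, 160.4 and 224 CPM, close together and overlapping the lowest part of the day 0 range, and the log2 fold change of -1.26 (SE 0.50, 95% interval -2.28 to -0.24) was not called (edgeR adjusted p = 0.222). Against day 7, all day 28 libraries were higher, by 2.46 on the log2 scale (SE 0.53, edgeR adjusted p = 0.00241). The order of the means was day 0 (493 ± 254 CPM, SD, n = 4), day 28 (206 ± 39.9, n = 3), day 21 (109.7 ± 84.7, n = 4), day 14 (53.9 ± 38.8, n = 3) and day 7 (37.3 ± 5.11, n = 4). The neighbours day 14 and day 7 overlapped, as did day 21 with day 14 and with day 28.

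*Gstm2*, a second mu-class transferase on the same strand of chromosome 3 (107889004 to 107893785), fell less. Its levels were 219, 182, 199.7 and 235 CPM on day 0 and 62.3, 66.5, 35.9 and 115 CPM on day 7. All 4 libraries of day 7 were below all of day 0, with replicate 3 the lowest and replicate 4 the highest. This was a log2 fold change of -1.57 (SE 0.31, edgeR adjusted p = 0.000625), a 2.97-fold lower level. Day 14 gave 166, 68.8 and 119 CPM and day 21 gave 122, 94.9, 174 and 119 CPM. Every library of both days stayed below every day 0 library, but the log2 fold changes of -0.82 (edgeR adjusted p = 0.164) and -0.71 (edgeR adjusted p = 0.151) were not called. Day 28 gave 181, 195 and 181 CPM, which overlapped day 0 (log2 fold change -0.17, 95% interval -0.83 to 0.49) and lay above every day 7 library (log2 fold change 1.40, SE 0.33, edgeR adjusted p = 0.00506).

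Other *Gstm* genes were counted at low levels, so the family was also read as 1 sum. *Gstm5* had 31.3 to 58.1 CPM on day 0 and 9.97 to 43.6 CPM on day 7, *Gstm4* had at most 24.0 CPM and *Gstm7* at most 23.8 CPM in any library, *Gstm6* had at most 9.19 CPM, and *Gstm3* had no count. Of these, *Gstm4* and *Gstm5* passed the filter on low counts and neither was called against day 0. The 3′ end of *Gstm1* is 98.0% identical to that of *Gstm3* over 198 bases and 98.3% identical to *Gstm2-ps1* over 288 bases, and these copies held 0 and 2 counts in all libraries against 2361 for *Gstm1*. The sum of *Gstm1* to *Gstm7* was 430.8 to 1018 CPM on day 0 and 99.7 to 195 CPM on day 7, a log2 difference of -2.42. *Gstm1* made up 45.7% to 73.1% of the sum on day 0, 15.7% to 38.0% on day 7, 13.4% to 31.1% on day 14, 14.3% to 53.9% on day 21 and 40.2% to 52.8% on day 28. The shares of days 0 and 7 did not overlap.

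**Figure D2:**
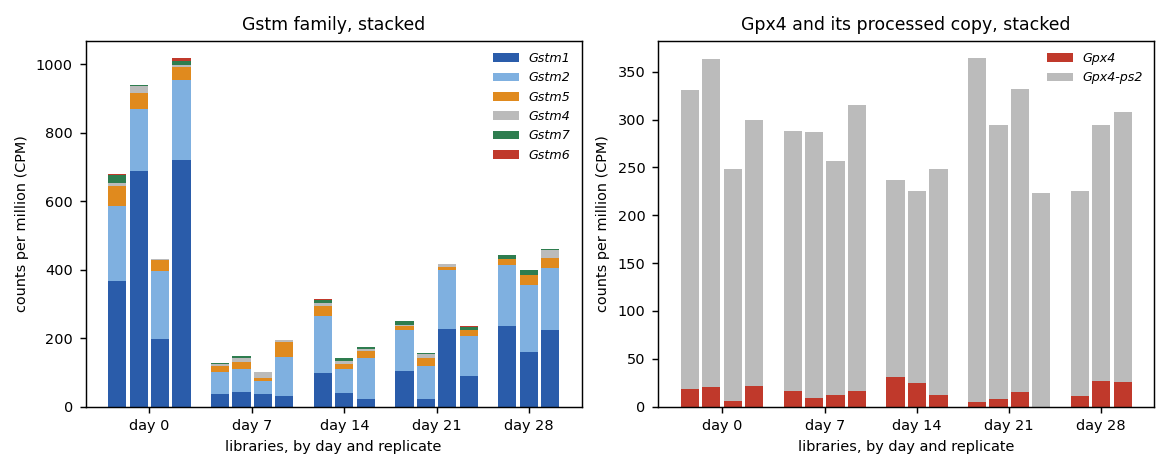
Stacked CPM (y axis, linear from 0) of the *Gstm* genes (left) and of *Gpx4* with its processed copy *Gpx4-ps2* (right) in each of the 18 libraries (x axis, by day and replicate). The dark *Gstm1* part shrinks most after injury, from 45.7% to 73.1% of the *Gstm* sum on day 0 to 15.7% to 38.0% on day 7, and *Gpx4* is the small lower part of each bar on the right.

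Among the glutathione peroxidases, *Gpx1*, the ubiquitous enzyme of the cytosol and mitochondria, was counted at 482, 681, 869 and 685 CPM on day 0. Day 7 gave 751, 516, 558 and 549 CPM, day 14 gave 599.8, 542 and 630.2, day 21 gave 442, 240.2, 720.3 and 477, and day 28 gave 739.7, 418 and 524. Every day overlapped day 0. The log2 fold changes ran from -0.53 on day 21 (95% interval -1.08 to 0.02) to -0.19 on day 7 (95% interval -0.74 to 0.35), and none was called.

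*Gpx3*, the secreted peroxidase of plasma, had low and scattered counts. Day 0 gave 13.4, 1.20, 14.9 and 27.6 CPM, day 7 gave 17.8, 70.1, 93.7 and 16.1 CPM, and day 14 gave 11.2, 259 and 36.5 CPM. Replicate 2 of day 14 stood at 259 CPM and replicate 1 lay inside the day 0 range. Skeletal muscle markers summed to 531 CPM in this replicate 2, against 4.80 and 9.13 CPM in the other libraries of day 14. The log2 fold change on day 14 was 2.83 (SE 0.83, edgeR adjusted p = 0.0395), and without that library it was 0.76 (edgeR adjusted p = 0.885). The call was also lost without replicate 1, 2 or 3 of day 0 or replicate 4 of day 21, and with DESeq2 (adjusted p = 0.0634). Day 21 gave 108, 70.6, 44.4 and 44.2 CPM, every library above every day 0 library, as for 9.31% of all genes, with a log2 fold change of 2.24 (95% interval 0.61 to 3.89, edgeR adjusted p = 0.0785). This change was not called in the main fit and was called in 4 of 27 alternative analyses. Replicate 1, the highest of day 21 at 108 CPM, also had the highest skeletal muscle sum of that day, 383 CPM against 11.5 to 14.1 CPM, whereas on day 7 the highest *Gpx3* level (replicate 3) and the highest muscle sum (replicate 2, 119 CPM) were in different libraries. The part of muscle tissue in the *Gpx3* levels was not tested. Day 28 gave 20.1, 3.31 and 33.6 CPM, back within a range that overlapped day 0 (log2 fold change 0.42, edgeR adjusted p = 0.872). Exons of *Gpx3* overlap those of *Tnip1* on the other strand, which held 328 counts in all libraries, and the use of strand in the counting is not given in the sources used here.

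*Gpx4*, which reduces lipid peroxides within membranes and guards against ferroptosis, is uncertain in this table. It held 178 counts in all 18 libraries. *Gpx4-ps2*, a processed copy on chromosome 10 at 45751387 to 45751941 (GRCm39) that is 99.2% identical over 129 bases to the 3′ end of *Gpx4*, held 3135. A further gene model at the same place, *Gm63662*, shares the 3′ end of *Gpx4* and was not in the count table. *Gpx4* levels were 17.9, 20.3, 5.96 and 21.0 CPM on day 0 and ranged from 0 to 30.4 CPM afterwards. No comparison was called for *Gpx4* alone, with log2 fold changes from -1.19 on day 21 to 0.44 on day 14. The sum with *Gpx4-ps2* was 248.9 to 363 CPM on day 0, 257 to 315 on day 7, 226 to 248 on day 14, 223 to 364 on day 21 and 225 to 308 on day 28. For the sum too, no comparison was called, and the direction turned on day 14 (log2 fold change -0.39) and on day 28 (-0.17).

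Of the superoxide dismutases, *Sod3* encodes the secreted form that binds to the extracellular matrix and is abundant in arteries. Its levels were 1669, 1751, 1337 and 1562 CPM on day 0. On day 7 they were 597, 219, 91.7 and 822 CPM, all below day 0 and spread over a wide range. The log2 fold change was -1.87 (SE 0.42, edgeR adjusted p = 0.00202), a 3.65-fold lower level. Day 14 gave 1279.7, 619 and 629 CPM, day 21 gave 639.9, 446, 1008 and 570.1 CPM, and day 28 gave 1054, 659.9 and 855 CPM. All 10 libraries of days 14, 21 and 28 were also below every day 0 library. The log2 fold changes were -0.91 on day 14 (95% interval -1.82 to 0.01), -1.24 on day 21 (95% interval -2.09 to -0.40) and -0.88 on day 28 (95% interval -1.80 to 0.03), none of them called. Day 21 stood just outside the threshold (edgeR adjusted p = 0.0578) and was called in 11 of 27 alternative analyses. Libraries below every day 0 library were found for 9.71% of all genes at day 7, 6.79% at 14 days, 6.81% at 21 days and 5.07% at 28 days.

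*Sod1* encodes the copper and zinc enzyme of the cytosol. It was counted at 685, 730.4, 841 and 640.4 CPM on day 0, 543, 512, 793 and 906 on day 7 and 702, 448 and 564 on day 14. These 3 days overlapped. Day 21 gave 343, 511, 431 and 433 CPM, each below every day 0 library and every day 7 library. Libraries of day 21 all below those of day 7 were found for 9.18% of all genes. Against day 0 the log2 fold change was -0.76 (SE 0.22, edgeR adjusted p = 0.0306). Without replicate 1 of day 21 it was -0.66 (edgeR adjusted p = 0.108), and the call was also lost without replicate 2 or 3 of day 0 or replicate 3 or 4 of day 21. Day 28 gave 643, 688 and 617 CPM, which again overlapped day 0 (log2 fold change -0.16, 95% interval -0.64 to 0.33).

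*Sod2*, the manganese enzyme of mitochondria, has a 3′ end that matched 16 other genes in the search for copies. This was more than for any other enzyme of the set. The counts of these genes are not given here, and their part in the *Sod2* levels was not tested. *Sod2* stood at 64.0, 110.0, 129.7 and 110.2 CPM on day 0. Day 7 was the most scattered day, with 207, 144, 51.8 and 83.9 CPM on both sides of the day 0 values (log2 fold change 0.23, 95% interval -0.45 to 0.91). Day 14 gave 75.2, 70.6 and 52.2 CPM, day 21 gave 50.9, 50.5, 47.7 and 55.8, and day 28 gave 68.9, 57.9 and 71.9. The 4 libraries of day 21 were close together and below every day 0 library, at a log2 fold change of -1.02 that was not called (edgeR adjusted p = 0.0649). Against day 7, *Sod2* was lower on day 21 by 1.25 on the log2 scale (change -1.25, SE 0.35, edgeR adjusted p = 0.0250), but replicate 3 of day 7 lay within the range of day 21. Without replicate 1 of day 7 this change was -0.84 (edgeR adjusted p = 0.187), and the call was also lost without replicate 2 of day 7 or any 1 library of day 21. In a fit of the 3 mice that share a number between days 0 and 21, with the mouse as a block, 4 of the 10 genes were lower on day 21 in place of 2: *Gstm1*, *Sod1*, *Sod2* (edgeR adjusted p = 0.0327) and *Sod3* (edgeR adjusted p = 0.00517).

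Catalase, which splits hydrogen peroxide in peroxisomes, had 98.3, 29.9, 74.5 and 49.9 CPM of *Cat* on day 0. Later levels were 41.0, 59.3, 35.9 and 149 CPM on day 7, 57.6, 45.9 and 40.4 on day 14, 52.0, 46.4, 55.9 and 41.9 on day 21, and 21.5, 43.0 and 57.5 on day 28. Apart from replicate 4 of day 7, every later library lay below the highest day 0 library, and each day overlapped day 0. The log2 fold changes ran from -0.63 on day 28 (95% interval -1.61 to 0.35) to 0.19 on day 7 (95% interval -0.69 to 1.07), and none was called.

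*Prdx6*, a peroxiredoxin with a single reactive cysteine that also acts on phospholipids, was the 1 enzyme of the set that was higher on day 7. Its levels were 93.8, 89.7, 96.9 and 136 CPM on day 0 and 201, 192, 211 and 186 CPM on day 7. The day 7 libraries were close together and all above day 0, as was the case for 13.6% of all genes. The log2 fold change was 0.92 (SE 0.23, edgeR adjusted p = 0.00469), a 1.89-fold higher level. Day 14 gave 138, 150.0 and 134 CPM, between days 0 and 7 and overlapping replicate 4 of day 0 (log2 fold change 0.43, 95% interval -0.07 to 0.94). Day 21 gave 89.9, 88.8, 110.2 and 76.8 CPM and day 28 gave 115, 92.6 and 89.5 CPM. Both days overlapped day 0, with 2 libraries of day 21 and 1 of day 28 below its lowest library, and both lay below every day 7 library. The change from day 7 was -1.11 on day 21 (SE 0.23, edgeR adjusted p = 0.00333) and -0.99 on day 28 (SE 0.25, edgeR adjusted p = 0.00876) on the log2 scale. The copy *Prdx6b*, 95.5% identical over 88 bases, held 4 counts in all libraries against 1434 for *Prdx6*.

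**Figure D3:**
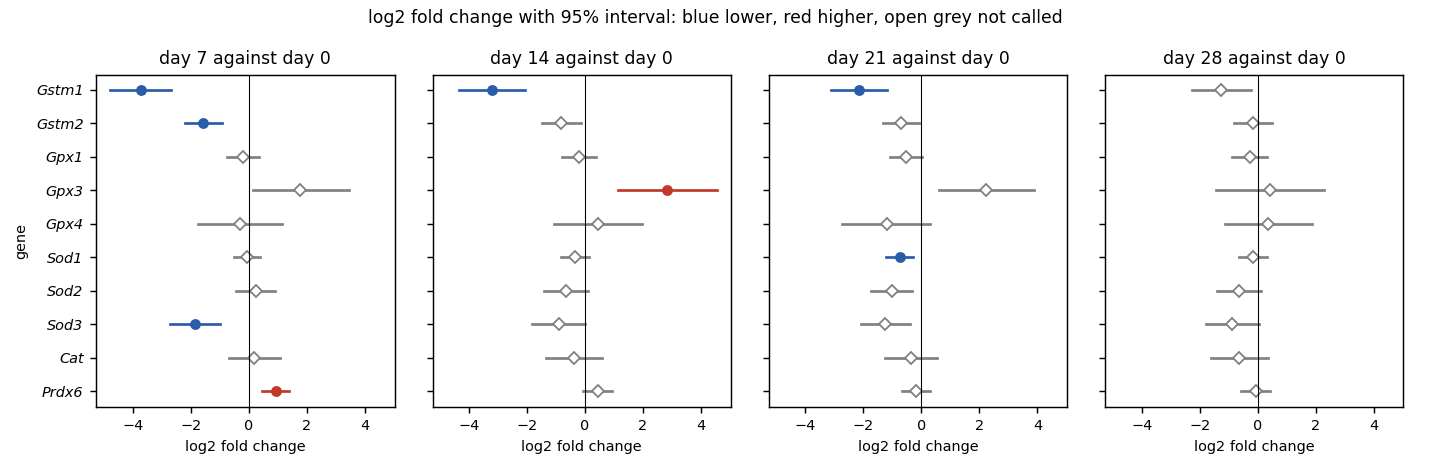
log2 fold change against day 0 (x axis) of each enzyme (y axis) on days 7, 14, 21 and 28, with lines for 95% intervals, filled blue for lower, filled red for higher and open grey for not called in edgeR. Calls thin out from 4 on day 7 to 2 on days 14 and 21 and 0 on day 28, where the interval of *Gstm1* still lies below 0.

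Between later days, 2 of the 10 were called between days 7 and 21 (*Sod2* and *Prdx6*, both lower on day 21), against 7.26% of all genes called and 3.23% called lower. Between days 7 and 28, 3 were called (*Gstm1* and *Gstm2* higher, *Prdx6* lower), against 14.4% of all genes called, 6.4% higher and 8.05% lower. All libraries of day 28 lay above those of day 7 for 9.74% of all genes and below them for 14.4%. For *Gstm1* the rise from day 7 to day 21 was 1.57 on the log2 scale and was not called (edgeR adjusted p = 0.0587). These comparisons share the day 7 libraries with the comparison of day 7 with day 0.

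The cell types of the captured tissue changed over the same days. In bulk libraries, fewer cells of a type and less RNA per cell cannot be told apart. The 10 contractile smooth muscle markers, *Acta2* and *Myh11* among them, summed to 34167 to 39599.5 CPM on day 0, 1693 to 7381 on day 7, 7724 to 24565 on day 14, 8811 to 22613 on day 21 and 21318 to 29863 on day 28. Of the 9 tested, 9 were lower at day 7, 5 at 14 days, 6 at 21 days and 1 at 28 days. No marker of this list was at 0 in every library of a day. The library with the highest sum within day 7 (replicate 4), day 14 (replicate 1) and day 21 (replicate 3) was also the one with the highest *Gstm2* and the highest *Sod3* level of that day. On day 28 the library with the highest sum (replicate 1) had the highest *Sod3* level but not the highest *Gstm2* level, which was in replicate 2. On day 0 the highest sum was in replicate 1, while *Gstm2* was highest in replicate 4 and *Sod3* in replicate 2. For *Gstm1* the highest level fell in the library with the highest sum on days 14, 21 and 28 but not on day 0, and on day 7 that library had the lowest *Gstm1* level.

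Macrophage markers moved the other way. The sum of 15 such markers was 133 to 576 CPM on day 0, 5536 to 8023 on day 7, 1532 to 3477 on day 14, 2171 to 3883 on day 21 and 949 to 1318 on day 28. All 15 were higher on days 7, 14 and 21, and 4 on day 28, and 2 of them were at 0 in every day 0 library. *Prdx6* was highest on the day with the highest sum, but on day 21 (76.8 to 110.2 CPM) it overlapped and partly lay below day 0 at macrophage sums of 2171 to 3883 CPM. Erythroid markers, whose cells are rich in *Gpx1*, *Prdx2* and catalase, summed to 95.3 to 396 CPM on day 0, 194 to 2444 on day 7 and 47.4 to 335 on later days. Neutrophil markers summed to 26.8 to 103 CPM on day 0, 281 to 1421 on day 7 and 66.1 to 617 later. Of these 11 markers, 5 were tested, and 5 were higher on day 7. *Ly6g*, *Camp*, *Ltf* and *Ngp* had no count in any day 7 library. *Lcn2* ranged from 0 to 623 CPM on day 7, and *Cxcr2* (mean 50.3 CPM) made up most of the day 0 sum. Fibroblast markers summed to 3188 to 4231 CPM on day 0, 1282 to 2373 on day 7 and 2798 to 5657 later, and 6 of 10 were lower and 1 higher on day 7. *Lum* was the largest part of these sums at 14 and 21 days, with means of 1566 and 1837 CPM against 119 CPM at day 0. *Gsn*, the largest part at day 0 (mean 1465 CPM), had means of 608 and 618 CPM at those times. Of the 10 fibroblast markers, 1 was higher and 2 lower at 14 days, and 2 higher and 3 lower at 21 days. At 28 days, 1 was higher and 0 lower. Adipocyte markers summed to 443 to 613 CPM on day 0, 61.8 to 234 on day 7 and 175 to 714 later. On day 0, 5 of these 10 markers, *Adipoq* among them, had no count in any library. *Plin4* (mean 297 CPM) and *Fabp4* (mean 238 CPM) made up most of the day 0 sum. The part of these cell types in the enzyme levels was not tested.

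**Figure D4:**
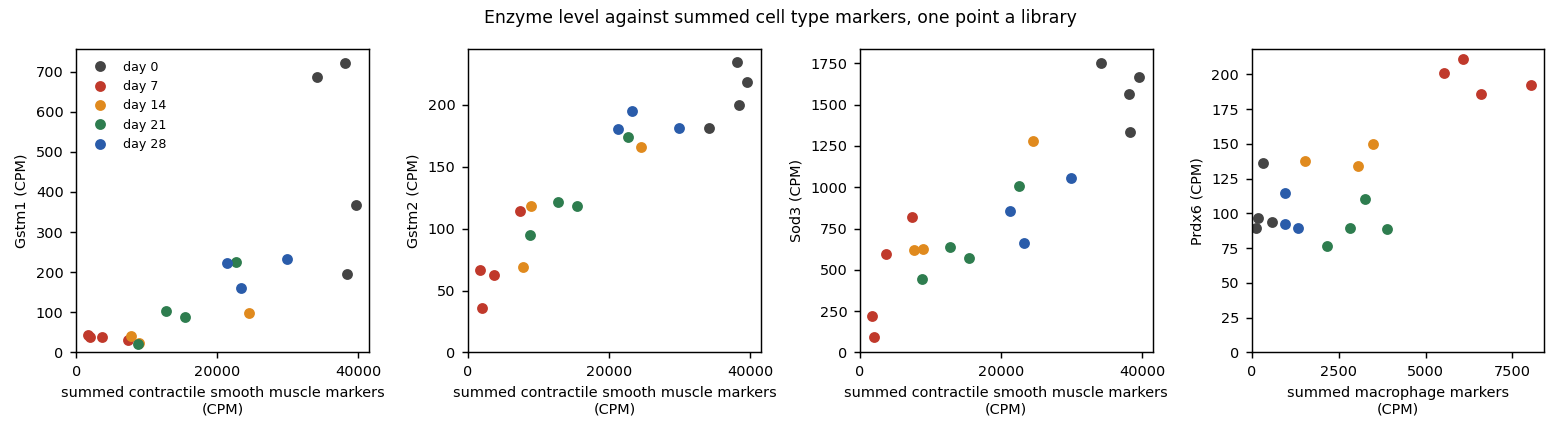
Level of *Gstm1*, *Gstm2* and *Sod3* against the summed contractile smooth muscle markers and of *Prdx6* against the summed macrophage markers (both axes in CPM, linear from 0), 1 point per library, coloured by day. The lowest levels of *Gstm2* and *Sod3* are in libraries of day 7, whose sums were 1693 to 7381 CPM, though other days reach into their range, and *Prdx6* is highest on day 7, while days 0 and 21 overlap at lower levels and differ in their macrophage sums.

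Outside the set, 3 genes were nearest to *Gstm1*, the 1 enzyme called on at least 2 days against day 0, by Pearson's r of log2 CPM over the 18 libraries. They were *Dtna* (r = 0.93), *Pdlim7* (r = 0.91) and *Rras* (r = 0.90). These r values describe libraries of 5 days that differ from each other, and they carry no test. *Dtna* encodes a dystrobrevin of the dystrophin complex, *Pdlim7* a protein of the actin cytoskeleton and *Rras* a small GTPase. Each of them was lower on days 7, 14 and 21, and *Dtna* had the lowest day 7 value, -4.36 on the log2 scale (SE 0.71, edgeR adjusted p = 6.94e-05). The genes were picked by their r with *Gstm1* in these same libraries. Their calls on the days of the *Gstm1* calls follow in part from that choice and are descriptive only.

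Further genes of the same chemistry were read from 5 lists with 140 genes in all, of which 109 were tested. The lists too were chosen with earlier results of these data known, so their shares are descriptive only. On day 7, 20 of the 109 were higher and 7 lower (24.8%, against 19.8% of all genes). On day 14, 2 were higher and 2 lower (3.67%, against 6.22%), on day 21, 2 higher and 5 lower (6.42%, against 8.84%), and on day 28 none was called (against 1.34%). Between days 7 and 21, 1 was higher and 14 lower on the later day (13.8%, against 7.26%), and between days 7 and 28, 4 higher and 18 lower (20.2%, against 14.4%). The single lists are given beside the shares of all genes on day 7, 11.3% higher and 8.53% lower, and hold so few genes that 1 call moves their shares far. The median log2 fold change of the lists together was 0.03 at day 7, 0.02 at 14 days, -0.13 at 21 days and -0.16 at 28 days.

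Other glutathione transferases (13 tested) showed 1 gene higher (7.69%) and 2 lower (15.4%) on day 7, against 11.3% and 8.53% of all genes, 2 lower on day 21 and no call on days 14 and 28. *Gsto1*, an omega-class enzyme, was higher on day 7, with 38.7 to 112 CPM against 14.3 to 34.3 CPM on day 0 (log2 fold change 1.68, SE 0.39, edgeR adjusted p = 0.00239). *Gstp1*, the pi-class enzyme, was lower on day 7 (log2 fold change -1.04, edgeR adjusted p = 0.00913) and on day 21 (-0.94, edgeR adjusted p = 0.0341). *Gstk1*, a kappa-class enzyme of mitochondria and peroxisomes, fell to 0 to 7.12 CPM on day 7 (log2 fold change -3.27, SE 0.90, edgeR adjusted p = 0.00851), but 1 day 0 library had 1.49 CPM. *Gstt2*, a theta-class enzyme, was lower on day 21 (log2 fold change -2.16, SE 0.68, edgeR adjusted p = 0.0415).

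Genes that make, recycle or use glutathione (19 tested) showed 5 higher (26.3%) and 1 lower (5.26%) on day 7, against 11.3% and 8.53% of all genes, 1 lower on day 21 and no call on days 14 and 28. *Pgd*, an NADPH-producing enzyme of the pentose phosphate pathway, was higher on day 7 with 183 to 262 CPM against 19.1 to 74.8 CPM (log2 fold change 1.96, SE 0.40, edgeR adjusted p = 0.000832). *Ggct*, which acts in glutathione turnover, had 32.3 to 57.0 CPM on day 7 and was without a count in 3 of 4 day 0 libraries (log2 fold change 3.81, SE 1.01, edgeR adjusted p = 0.0068). *Glo1*, which clears methylglyoxal with glutathione, was lower on day 7 (log2 fold change -1.08, edgeR adjusted p = 0.0117) and day 21 (-0.98, edgeR adjusted p = 0.0411).

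Other peroxidases and the thioredoxin system (29 tested) showed 5 higher (17.2%) and 3 lower (10.3%) on day 7, against 11.3% and 8.53% of all genes, 1 in each direction on day 14, 1 lower on day 21 and none on day 28. *Prdx1*, a peroxiredoxin of the cytosol, rose with *Prdx6* on day 7, from 311 to 507 CPM on day 0 to 831 to 1739 CPM (log2 fold change 1.52, SE 0.27, edgeR adjusted p = 0.000198). *Glrx*, a glutaredoxin, was higher by 2.92 (SE 0.59, edgeR adjusted p = 0.000752). *Msrb3*, a methionine sulfoxide reductase, was lower by 2.15 on the log2 scale (change -2.15, SE 0.38, edgeR adjusted p = 0.000201), and *Txnip*, an inhibitor of thioredoxin, had a change of -1.18 (edgeR adjusted p = 0.000976). *Msrb1*, a selenium-containing methionine sulfoxide reductase, was lower on day 7 (log2 fold change -1.37, edgeR adjusted p = 0.00149), day 14 (log2 fold change -1.24, edgeR adjusted p = 0.0196) and day 21 (-1.63, edgeR adjusted p = 0.00104). *Gpx7*, a peroxidase of the endoplasmic reticulum, was higher on day 14 (log2 fold change 1.12, edgeR adjusted p = 0.0491).

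NRF2 regulators and targets (29 tested) showed 8 higher (27.6%) and 1 lower (3.45%) on day 7, against 11.3% and 8.53% of all genes, 1 in each direction on day 14, 2 higher and 1 lower on day 21 and none on day 28. *Hmox1*, which breaks down haem, had 1.31 to 17.9 CPM on day 0 and 539.5 to 1661 CPM on day 7 (log2 fold change 7.16, SE 0.94, edgeR adjusted p = 4.6e-06). *Slc40a1*, the iron exporter ferroportin, had no count on day 0 and 30.3 to 150.1 CPM on day 7, at least 19.7-fold higher when day 0 is set to 3 counts in each library, and at least 3.59-fold higher on day 21. *Ftl1*, the light chain of ferritin, was higher on day 7 (log2 fold change 2.91, SE 0.27, edgeR adjusted p = 9.45e-08), day 14 (1.23, edgeR adjusted p = 0.00583) and day 21 (1.00, edgeR adjusted p = 0.0154). *Fth1*, the heavy chain, was lower on day 14 (log2 fold change -0.91, edgeR adjusted p = 0.0434) and day 21 (-1.41, SE 0.25, edgeR adjusted p = 0.000731). *Mafk*, a partner of NRF2, was lower on day 7 (log2 fold change -1.89, edgeR adjusted p = 0.0208). Several of these genes are known to be high in macrophages, whose markers rose on the same days, and their part was not tested.

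Genes of selenoproteins and selenium use (19 tested) showed 1 call, *Selenoh*, a selenoprotein of the nucleus, which was higher on day 7 (5.26% of the list, against 11.3% of all genes, log2 fold change 1.61, SE 0.52, edgeR adjusted p = 0.0268). No call was made in this list on days 14, 21 and 28. The lists share no gene, so selenoproteins placed in another group are not counted here. *Msrb1*, which was lower on days 7, 14 and 21, is one of them.

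**Figure D5:**
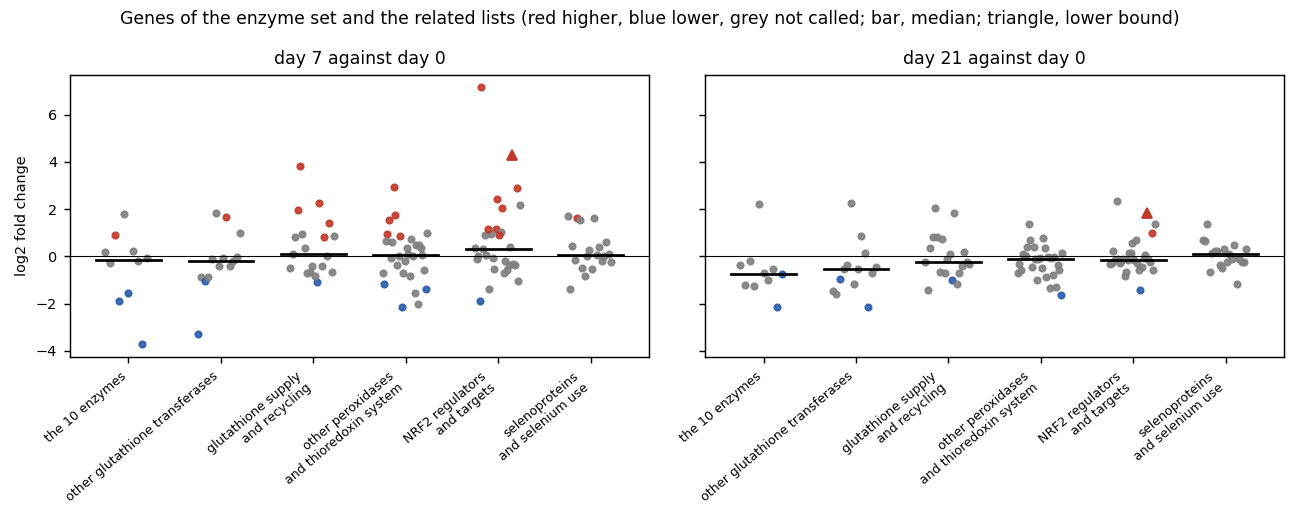
log2 fold change against day 0 (y axis) of each tested gene of the 10 enzymes and of the 5 related lists (x axis) on day 7 (left) and day 21 (right), red for higher, blue for lower and grey for not called in edgeR, with a bar at the median and triangles at lower bounds where day 0 had no count. On day 7 the calls of the lists are mostly red (20 higher, 7 lower), whereas 3 of the 4 calls among the 10 enzymes are blue.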

How the data were processed

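Per the study's methods, duplicates were collapsed by molecular barcodes and reads were cropped, and the authors quantified MACE reads on mm39 transcripts with Salmon 1.9.0. The deposited table holds these as estimated counts in whole numbers, 440675 to 878310 in all per library. The deposited normalised counts, a signal made with DESeq2 1.36.0, hold a further factor for some genes (0.536 to 1.24 for *Gstm1*, 0.179 to 1.73 for *Gpx4*, 0.608 to 3.69 for *Sod2*) and were used in 1 alternative only. The annotation release is not given in the sources used here.

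For the fits, edgeR 4.0.16 was run on these counts under R 4.3.3 (filterByExpr by day, TMM, quasi-likelihood test, 1 fit over 18 libraries, Benjamini-Hochberg adjustment over 10312 genes, threshold 0.05). Errors are SD of CPM or SE of log2 fold changes, and p-values measure the spread between libraries. The steps were tested on simulated data. The members and lists were chosen with earlier results of these data known. From each list, at most 2 genes per direction and day with the smallest p were named. Copies were searched with blastn 2.17.0 in the last 350 bases of GENCODE transcripts (at least 75 bases, 95% identity).

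Replicate numbers were not used as pairs in the main fit. Libraries of different days with the same replicate number had residual correlations of -0.13 to 0.20 over 33 pairs. The 3 mouse numbers shared by days 0 and 21 gave -0.01 to 0.06. Since these were low too, the measure cannot exclude a pairing. Alternatives were DESeq2 1.42.0, other normalizations and filters, fits of 2 days, blocks (limma 3.58.1 for the mouse), summed copies, and each library left out. The sum of *Gpx4* and *Gpx4-ps2* was added after the data were seen.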

Additional observations from a re-analysis of the deposited data

Results flagged for a closer look

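Replicate 4 of day 0 stood apart for *Prdx6*, at 136 CPM against 89.7 to 96.9 CPM in the other 3, with a gap of 0.846 of the group's range, above Dixon's 95% value for 4 samples. Chance gives such a gap in about 1 of 20 groups, and the level of day 7 was above this library too.

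The effect of injury differed between days for 4 enzymes in edgeR's quasi-likelihood test of 1 day against another. *Sod2* (log2 difference -1.25) and *Prdx6* (-1.11) were lower on day 21 than on day 7. On day 28, *Gstm1* (2.46) and *Gstm2* (1.40) were higher than on day 7 and *Prdx6* (-0.99) was lower.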

How the results depend on the processing

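The day 7 calls of *Gstm1*, *Gstm2*, *Sod3* and *Prdx6* and the *Gstm1* calls of days 14 and 21 held in every alternative run, as did the calls of *Gstm1*, *Gstm2* and *Prdx6* on day 28 and of *Prdx6* on day 21 against day 7. On day 14, 1 of the 10 enzymes was called in place of 2 under DESeq2, in the fit of the 2 days compared, with the replicate block and with the mouse as a random block, each time without *Gpx3* (adjusted p = 0.0634, 0.068, 0.209 and 0.247). On day 21, 4 were called in place of 2 under DESeq2 with the deposited factors and with the block of the 3 mice, and 5 in the fit of 2 days. Without a filter on low counts, 5 were called on day 7 in place of 4 and 3 on day 14 in place of 2. That fit also called 4 on day 28 against day 7 in place of 3 and 2 on day 28 against day 0 in place of 0. On day 21 it lost *Sod1* (edgeR adjusted p = 0.0513) and gained *Gpx3* (edgeR adjusted p = 9.71e-05) and *Sod3* (edgeR adjusted p = 3.96e-05). Between days 7 and 21, 4 were called under DESeq2 in place of 2 and 1 with the replicate block, where *Sod2* was lost (adjusted p = 0.0511), as it was with the mouse as a random block (adjusted p = 0.0751), a fit that called 4 on day 28 against day 7. Over all genes, day 28 against day 0 had 138 calls, 331 under DESeq2, 336 with the deposited factors, 363 without a filter, 32 in the fit of 2 days, 72 with the replicate block and 52 with the mouse block, and day 28 against day 7 had 1490, and 922 in the fit of 2 days. The cause was not tested.

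The direction turned for 7 uncalled values: *Prdx6* on day 28 (0.025 without TMM), *Gpx4* on day 7 (0.075 with the deposited factors), *Cat* on day 21 (0.069 with the block of the 3 mice), and *Gpx4* summed with its copy on day 14 (-0.39), day 28 (-0.17) and, against day 7, day 21 (0.084) and day 28 (-0.057). Leaving out 1 library turned the direction of the uncalled changes of *Cat* (-0.48 to 0.48), *Sod1* (-0.24 to 0.0073) and *Sod2* (-0.20 to 0.45) on day 7, of *Gpx3* (-0.25 to 0.98) and *Prdx6* (-0.18 to 0.083) on day 28, and, against day 7, of *Cat* on day 21 (-0.74 to 0.13) and *Gpx1* (-0.31 to 0.10) and *Sod1* (-0.16 to 0.088) on day 28. In the same way the enzymes called ranged from 1 to 2 on day 14, 1 to 4 on day 21 and 1 to 3 between days 7 and 21, and all genes called from 233 to 762 on day 14 and from 63 to 480 on day 28. *Gstm1* to *Gstm7* summed were lower on day 14 (-1.87, adjusted p = 0.00146) and day 21 (-1.53, adjusted p = 0.00261). At the depth of these libraries, *Gpx3* and *Gpx4* rest on few counts, and changes of these genes may go undetected.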

Other observations

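Marker lists of further cell types were summed in the same way. Endothelial markers summed to 689 to 1254 CPM on day 0 and 773 to 2444 CPM on day 7, where 4 of 10 were higher and 1 lower. Schwann cell and nerve markers summed to 175 to 282 CPM on day 0 and 99.7 to 438 CPM later. On day 0, 7 of these 10 markers had no count in any library. Markers of T and B lymphocytes stayed at 48.5 CPM or less in every library, and none passed the filter on low counts. Skeletal muscle markers were at 5.96 CPM or less on day 0 and reached 119 CPM in 1 library of day 7, 531 CPM in 1 of day 14 and 383 CPM in 1 of day 21. Their part in the enzyme levels was not tested.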
